A study of Mus musculus with 18 samples.

Results

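Mouse E14 embryonic stem (ES) cells cultured with the GSK3 inhibitor CHIR99021 (CH) were compared with the same cells cultured with Fgf2 and Activin A (Fgf2/Activin), across all expressed genes. The samples were chosen by their labels, as the CH replicates 1 to 3 and the Fgf2/Activin replicates 1 to 3, which makes 6 of the 18 samples of the series. All cells had been maintained in 2i/Lif (CHIR99021 at 3 µM, the MEK inhibitor PD0325901 at 0.4 µM and Lif at 4 ng/ml) before they were embedded at passage 20 in growth factor-reduced Matrigel, at 2000 cells per µl, and grown in 3D for 48 h. CH cells received CHIR99021 at 3 µM, and Fgf2/Activin cells received 12 ng/ml of Fgf2 and 20 ng/ml of Activin A without CHIR99021. The cells of 3 further samples in DMSO, the solvent of the inhibitor, and of 3 in 2i (CHIR99021 at 3 µM with PD0325901 at 0.4 µM) entered the same fit and served as references. E14 is a single ES cell line, carried here without a transgene or deletion, so the samples represent that line alone. The labels do not say whether the replicates came from separate cultures, so the spread between these samples may be technical. The p-values of the main fit measure the spread left in all 12 fitted samples after differences shared by replicate numbers were removed.

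GSK3 marks β-catenin for degradation, and its inhibition lets β-catenin accumulate and act with TCF/LEF factors on target genes, as a Wnt ligand does. In mouse ES cells this helps to hold the naive state of the preimplantation epiblast, whereas Fgf2, acting through FGF receptors, MEK and ERK, and Activin, acting through type I and II receptors and Smad2/3, support the later epiblast of the egg cylinder. The later epiblast is a polarised epithelium around a lumen, and cells that leave it at the primitive streak again use Wnt, Nodal and FGF signals. The question of the comparison was therefore how a culture with Wnt activation and a culture with FGF and Activin signalling differ in pluripotency, lineage and epithelial genes.

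The CH libraries held 25388139 to 30799376 gene counts and the Fgf2/Activin libraries 28523527 to 33199666. Replicate 1 stood apart from replicates 2 and 3 in both cultures. The chi-square per gene between replicate 1 and the others was between 50.3 and 56.2 in CH and between 29.7 and 31.5 in Fgf2/Activin, against 5.54 and 2.86 between replicates 2 and 3. In a principal component analysis of these 6 samples, the culture separated along a component with 95.6% of the variance and replicate 1 from the others along a component with 3.30%. The replicate number was a block in the fit, so the distance of replicate 1 that the cultures share is not in its p-values. The numbers of genes called are also given without replicate 1 of every culture. Values per sample are CPM, counts scaled to a common library size with TMM factors, in the order of replicates 1, 2 and 3. Log2 fold changes are positive where CH was higher, and means stand with their SD (n = 3). Each log2 fold change stands with an approximate standard error, its size over the square root of the F statistic of its quasi-likelihood test. Where a culture lay close to the limit of detection, this error can fall below counting error. Genes with a Benjamini-Hochberg adjusted p under 0.01 in edgeR's quasi-likelihood test, whose log2 fold change also exceeded 1 in size, were called.

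Of 16413 genes tested, 1574 (9.59%) were called higher in CH and 2131 (13.0%) lower, together 22.6%. The median log2 fold change of all genes tested was 0.0046. Without replicate 1 of every culture, 1510 were called higher and 2228 lower. Changes were often large, with an absolute log2 fold change above 3 for 370 of the genes higher in CH and 501 of those lower. The CH and Fgf2/Activin samples did not overlap in 3581 of the 3705 genes called and in 56.0% of all genes tested. Of the reference comparisons in the same fit, Fgf2/Activin against DMSO called 424 genes (2.58%) and 2i against CH 672 (4.09%), and without the replicate block these numbers were 205 and 326. In RNA from whole cultures, fewer cells of a kind and less RNA per cell cannot be told apart. The gene lists below were chosen with earlier results of these data known, so their counts and medians are a description. Counts of list members called are to be read beside the shares of all genes, 9.59% higher and 13.0% lower.

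**Figure D1:**
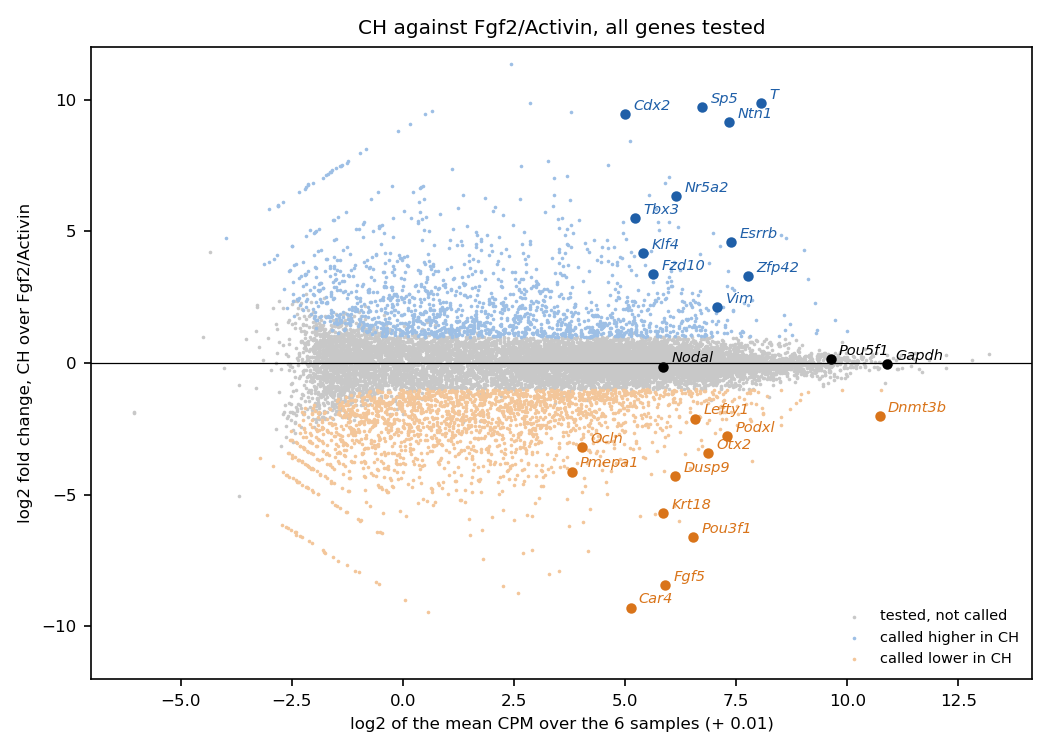
Log2 fold change of CH over Fgf2/Activin against the log2 of the mean CPM over the 6 samples, for the 16413 genes tested (blue and orange, called higher and lower; grey, not called). Named genes are drawn as large points, and T and Sp5 lie near 10 at the top while Car4 and Fgf5 lie below -8.

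By the rule for named genes, the 10 genes with the largest increase in CH were Cdx4, T, Sp5, Cdx1, Cdx2, Ntn1, Pglyrp1, Mobp, Gad1 and Dmgdh. T, the Brachyury transcription factor of the primitive streak and notochord (GRCm38 chromosome 17, 8434423 to 8442496), had 665, 502 and 436 CPM in CH and 0.211, 0.789 and 0.730 CPM in Fgf2/Activin. Its log2 fold change was 9.87 ± 0.24 (adjusted p = 4.63e-10). Ntn1, the secreted guidance and survival factor netrin-1 (GRCm38 chromosome 11, 68209364 to 68400823), had 251, 348 and 369 CPM in CH and 0.361, 0.756 and 0.591 CPM in Fgf2/Activin. Its log2 fold change was 9.14 ± 0.39 (adjusted p = 1.63e-08), and Fgf2/Activin was also lower than DMSO, by 2.51 ± 0.52 on the log2 scale (adjusted p = 0.00858, and 0.0128 without the replicate block). Pglyrp1, a secreted peptidoglycan-binding protein, had a log2 fold change of 8.44 ± 0.22. Gad1, which makes the transmitter GABA from glutamate, had 7.53 ± 0.31, and Dmgdh, a mitochondrial enzyme of choline breakdown, 7.10 ± 0.26. Mobp, known from myelin, had 7.68 ± 0.32. These 4 genes had means between 0.0908 and 0.262 CPM in Fgf2/Activin, close to the limit of detection.

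By the same rule, which fixed their separation too, the 10 genes with the largest decrease were Car4, Fgf5, Tmem54, Miat, Fgf15, Rgl3, Pou3f1, Slc35d3, Syt13 and Sall2. Car4, a carbonic anhydrase anchored at the cell surface (GRCm38 chromosome 11, 84957786 to 84966044), had 0, 0.229 and 0.0800 CPM in CH and 113, 48.3 and 46.7 CPM in Fgf2/Activin. Fgf2/Activin replicate 1 was the highest sample, and the log2 fold change was -9.28 ± 0.33 (adjusted p = 5e-09). Sall2, a zinc finger factor (GRCm38 chromosome 14, 52311172 to 52328762), had 1.19, 3.24 and 2.72 CPM in CH and 129, 150.3 and 158 CPM in Fgf2/Activin (log2 fold change -5.99 ± 0.22). Rgl3, an activator of Ral GTPases, had -7.10 ± 0.30, Syt13, of the synaptotagmin family of membrane trafficking proteins, -6.02 ± 0.17, and Slc35d3 -6.19 ± 0.51. The membrane protein gene Tmem54 and the long non-coding RNA gene Miat had 6 and 8 counts in all CH samples together, and were 272 and 238 times lower there. The 95% intervals for counting error ran from 125 to 741 for Tmem54 and from 120.4 to 551 for Miat. Exons of Miat overlap those of other genes over 30.4% of their length, and counting without strand cannot separate their reads. Of these 10 genes, Fgf5, Fgf15 and Syt13 were also called higher in Fgf2/Activin than in DMSO, and the other 7 were not called there. Without the replicate block, Fgf5 and Syt13 had an adjusted p of 0.0766 and 0.0103 in that comparison.

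Genes known as direct or feedback targets of Wnt/β-catenin were mostly higher in CH. Of 25 targets tested, 13 were called higher (9.59% of all genes) and 1 lower (13.0% of all genes), and the median log2 fold change was 2.87, where that of all genes was 0.0046. Without replicate 1 of every culture, 13 were higher and 2 lower. To show where the known TCF/LEF motif lay beside start sites, whether or not the gene was called, the 250 bases before the RefSeq start (GRCm38.p6) are printed for the targets in which it was found, with the motif (ATCAAAG or its complement CTTTGAT, both strands searched) in capitals.
Sp5, chr2:70474673-70474922, plus strand: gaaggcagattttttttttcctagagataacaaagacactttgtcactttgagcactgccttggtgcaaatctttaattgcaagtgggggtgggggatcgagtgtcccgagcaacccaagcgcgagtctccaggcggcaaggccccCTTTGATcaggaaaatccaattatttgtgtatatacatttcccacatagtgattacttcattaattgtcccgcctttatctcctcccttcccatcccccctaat
Tnfrsf19, chr14:61037988-61038237, minus strand: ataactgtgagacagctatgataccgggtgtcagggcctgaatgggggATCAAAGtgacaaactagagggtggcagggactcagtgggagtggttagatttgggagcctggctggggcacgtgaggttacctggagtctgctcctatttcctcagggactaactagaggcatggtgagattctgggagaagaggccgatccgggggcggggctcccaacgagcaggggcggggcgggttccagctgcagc
Amotl2, chr9:102717554-102717803, plus strand: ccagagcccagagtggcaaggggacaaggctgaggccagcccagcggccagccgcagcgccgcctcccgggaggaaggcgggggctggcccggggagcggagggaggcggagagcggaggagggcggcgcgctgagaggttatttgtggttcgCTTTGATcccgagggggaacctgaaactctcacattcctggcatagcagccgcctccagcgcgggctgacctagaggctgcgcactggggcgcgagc
The motif began 104 bases before the start of Sp5, 202 before that of Tnfrsf19 and 97 before that of Amotl2. In windows from 250 bases before to 50 after the start, it was present for 3 of the 17 targets with an entry, and for 1160 of 27025 genes (4.29%) in the whole table. Of the 10 targets called higher with an entry, 2 held it, so most of the genes that rose did not carry these letters in this window. Cdx1, Notum and Wnt8a were not in the table.

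Sp5, a transcription factor and feedback regulator of Wnt targets, had 307, 164 and 168 CPM in CH and 0.180, 0.197 and 0.382 CPM in Fgf2/Activin. CH replicate 1 was the highest sample (log2 fold change 9.71 ± 0.21, adjusted p = 2.06e-10). The groups did not overlap, which the rule that named Sp5 had required. Axin2, the scaffold of the β-catenin destruction complex and a general read-out of the pathway (GRCm38 chromosome 11, 108920349 to 108950783), had 270.1, 158 and 156 CPM in CH and 9.87, 10.8 and 11.4 CPM in Fgf2/Activin. Here too each CH sample exceeded each Fgf2/Activin sample, and the log2 fold change was 4.14 ± 0.16 (adjusted p = 9.55e-09). Tnfrsf19, a receptor of the TNF family, had 95.1, 81.1 and 80.6 CPM in CH and 3.37, 6.05 and 4.94 CPM in Fgf2/Activin (log2 fold change 4.19 ± 0.23, adjusted p = 8.84e-08). The ubiquitin ligase Rnf43, which removes Frizzled receptors from the membrane, had 11.03, 2.78 and 2.56 CPM in CH and 0.662, 0.690 and 0.556 CPM in Fgf2/Activin, and CH replicate 1 stood well above the others (log2 fold change 2.87 ± 0.35, adjusted p = 3.61e-05). Sp8, a relative of Sp5, had a log2 fold change of 4.20 ± 0.41, and the secreted inhibitor Dkk1 3.23 ± 0.40. The secreted deacylase Notum, which inactivates Wnt ligands, had 4.69 ± 0.14, but its exons overlap those of another gene over 38.1% of their length.

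Not every known target moved with CH. Nkd2, a feedback inhibitor that binds Dishevelled, was called lower, with 2.69, 1.34 and 0.600 CPM in CH and 6.95, 4.63 and 4.76 CPM in Fgf2/Activin (log2 fold change -1.88 ± 0.27, adjusted p = 0.000116). Lef1 and Tcf7, which encode TCF/LEF factors themselves, had 64.6, 82.8 and 83.1 CPM in CH and 41.4, 86.0 and 81.0 CPM in Fgf2/Activin, and 172, 133 and 131 CPM in CH and 157, 114 and 108 CPM in Fgf2/Activin. In both genes the samples of the cultures overlapped, and the log2 fold changes of 0.22 ± 0.36 for Lef1 and 0.21 ± 0.10 for Tcf7 were not called. Within each replicate number, Tcf7 was higher in CH, and without replicate 1 of every culture its log2 fold change was 0.25 ± 0.06, under the fold threshold (adjusted p = 0.00189). The cyclin Ccnd1 likewise was not called (0.10 ± 0.09). Amotl2, in spite of the motif at its start, had -0.28 ± 0.15 and was not called. Between Fgf2/Activin and DMSO, 2 of the 25 targets were called higher (1.68% of all genes), Wnt3 and Fgf8, and none lower (0.908% of all genes). The call of Wnt3 was lost without the replicate block (adjusted p = 0.0122). Between 2i and CH, 9 were called lower in 2i (3.25% of all genes), or 7 without the replicate block, and none higher (0.841% of all genes). T was among these 9, with 91.0 ± 19.7 CPM in 2i against 534 ± 118 in CH (log2 fold change of 2i over CH -2.55 ± 0.15, adjusted p = 4.96e-06), whereas Axin2 was not called between them (-0.19 ± 0.14).

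Receptors, ligands and machinery genes of the pathway were called in both directions. Of 13 Frizzled and Ror/Ryk receptors, 2 were called higher and 6 lower (61.5%, against 22.6% of all genes). Their median log2 fold change was -0.996. Fzd7, the most studied Frizzled of ES cells, had 43.7, 62.6 and 67.3 CPM in CH and 283, 233 and 229 CPM in Fgf2/Activin. All CH samples were below all Fgf2/Activin samples (log2 fold change -2.11 ± 0.16, adjusted p = 9.51e-07). Fzd2, with -1.79 ± 0.08, and Fzd4, with -1.46 ± 0.10, were lower as well. Fzd10 went the opposite way, with 103, 91.3 and 76.3 CPM in CH and 7.16, 9.30 and 9.49 CPM in Fgf2/Activin (log2 fold change 3.38 ± 0.14, adjusted p = 1.42e-08), and it was also higher in Fgf2/Activin than in DMSO (2.14 ± 0.17, adjusted p = 2.43e-05). Ror2, a co-receptor for Wnt5a-type ligands, had 3.35 ± 0.39.

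Of 13 Wnt ligands tested among 19 listed, 5 were higher and 4 lower in CH (69.2% called, against 22.6% of all genes). Wnt8a, a streak ligand, had 22.7, 29.4 and 22.7 CPM in CH and 0.241, 1.05 and 1.01 CPM in Fgf2/Activin (log2 fold change 5.11 ± 0.37, adjusted p = 7.24e-07). Wnt5b, a ligand of β-catenin-independent signalling, had 59.6, 58.4 and 52.9 CPM in CH and 3.46, 3.61 and 3.65 CPM in Fgf2/Activin (log2 fold change 3.99 ± 0.15, adjusted p = 8.84e-09). Both ligands were separate between the cultures in every sample. Wnt3a had 235 counts in the CH samples together and 3 in the Fgf2/Activin samples, a ratio of 85.3 (95% interval for counting error 28.8 to 416). Wnt5a (1.56 ± 0.28) was called with the block only, with an adjusted p of 0.0512 without it. Without the block the ligands called were 3 higher and 3 lower. Porcn, the acyltransferase that Wnt ligands need for secretion, had 26.2, 22.4 and 22.4 CPM in CH and 0.902, 1.61 and 1.46 CPM in Fgf2/Activin (log2 fold change 4.19 ± 0.25, adjusted p = 1.89e-07). Among 26 genes of the pathway machinery, 2 were higher, Porcn and Pygo1, and 2 lower, Tcf7l1 and Tle2, and the median was -0.06. These 15.4% stand beside the 22.6% of all genes, and in a list of 26 the gap is a matter of few genes. Pygo1 lost its call without Fgf2/Activin replicate 1 (adjusted p = 0.0134), and Tle2 without any of the CH replicates or without Fgf2/Activin replicate 3 (adjusted p up to 0.0202), and also without replicate 1 of every culture (adjusted p = 0.0211). Tcf7l1, the repressor of the TCF family that restrains the naive network, had 16.9, 50.5 and 51.5 CPM in CH and 148, 131 and 131 CPM in Fgf2/Activin. It was lowest in CH replicate 1, and its log2 fold change was -1.87 ± 0.31 (adjusted p = 0.000367). Ctnnb1, which encodes β-catenin, had -0.11 ± 0.04 and was not called, nor were Apc (0.42 ± 0.08) and Gsk3b (-0.14 ± 0.07). Of 7 secreted antagonists tested, 4 were higher and 2 lower (85.7% called). Dkk3 had 2.12 ± 0.13 and Sfrp2, which binds Wnt ligands, -1.41 ± 0.08.

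Primitive streak and mesendoderm factors were among the genes most raised in CH. Of 25 tested, 17 were called higher and 2 lower (76.0%, against 22.6% of all genes), with a median log2 fold change of 2.45. Without replicate 1 of every culture the counts were 17 and 3. This list shares T, Sp5, the Cdx genes, Evx1, Mixl1, Wnt3, Wnt3a, Fgf8 and Fgf17 with other lists. The caudal factors Cdx1, Cdx2 and Cdx4, which pattern the posterior body, were nearly undetected in Fgf2/Activin. Cdx2 (GRCm38 chromosome 5, 147300805 to 147307270) had 91.9, 54.1 and 45.4 CPM in CH and 0, 0.131 and 0.139 CPM in Fgf2/Activin (log2 fold change 9.44 ± 0.55, adjusted p = 1.63e-07). Cdx1 had 2342 counts in the CH samples together against 3, a ratio of 850 (95% interval for counting error 290 to 4123), and Cdx4 1241 against 1, a ratio of 1351 (242 to 53392). Hoxb1, an anterior Hox gene of the early streak, had 240 counts in CH and none in Fgf2/Activin, and was at least 87.1-fold higher against 3 counts over the group. Evx1, a homeobox gene of the posterior streak, had 21.5, 21.7 and 19.7 CPM in CH and 0.0902, 0.263 and 0.139 CPM in Fgf2/Activin (log2 fold change 7.02 ± 0.38, adjusted p = 9.17e-08). Nkx1-2, of the caudal epiblast, had 116, 135 and 126 CPM in CH and 0.241, 1.45 and 1.18 CPM in Fgf2/Activin (log2 fold change 7.08 ± 0.33), with exon overlap over 16.6% of its length. Mixl1 had a log2 fold change of 2.82 ± 0.53, the peptide hormone Apln 2.45 ± 0.44 and the repressor Snai1, which drives the epithelial to mesenchymal transition, 1.69 ± 0.20.

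The T-box factor Eomes, which acts in the anterior streak, was called lower in CH. It had 0.954, 3.50 and 3.68 CPM in CH and 10.9, 16.2 and 15.8 CPM in Fgf2/Activin (log2 fold change -2.46 ± 0.26, adjusted p = 1.2e-05), and CH replicate 1 was the lowest sample. Mesp2 was the other factor called lower (-1.73 ± 0.35), at under 1 CPM in every sample of both cultures. The anterior streak gene Gsc and the mesoderm genes Mesp1 and Msgn1 were too low to be tested. With MEK inhibited in addition, 14 of the 25 factors were called lower in 2i than in CH (3.25% of all genes) and none higher (0.841%). Without the replicate block 12 were lower. Cdx2 had 10.1 ± 2.83 CPM in 2i against 63.8 ± 24.7 in CH, Evx1 2.56 ± 1.25 against 20.96 ± 1.08, and Wnt8a 2.60 ± 0.470 against 24.9 ± 3.83. Sp5 and Nkx1-2 were not among those 14, with log2 fold changes of 2i over CH of -0.71 ± 0.11 and -0.16 ± 0.21.

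**Figure D2:**
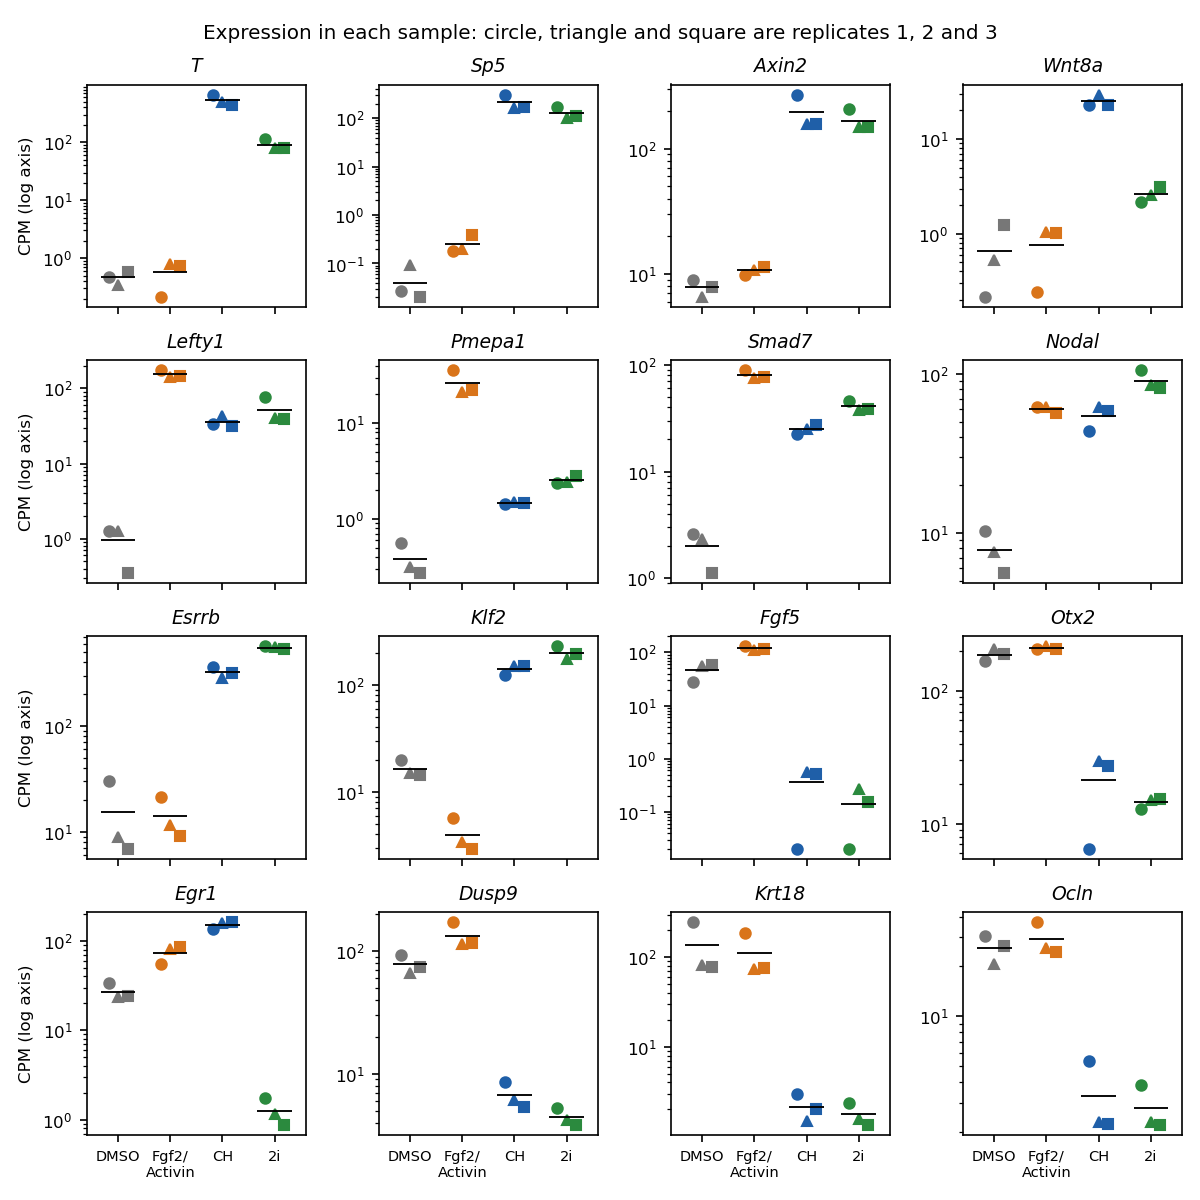
CPM of 16 genes in each sample of DMSO, Fgf2/Activin, CH and 2i on log axes, with circles, triangles and squares for replicates 1, 2 and 3, lines at the means, and values under 0.02 drawn at 0.02. T, Sp5, Axin2, Esrrb and Klf2 lie higher in CH than in Fgf2/Activin, Fgf5, Otx2, Dusp9, Krt18 and Ocln lower, and Lefty1, Pmepa1 and Smad7 are high in Fgf2/Activin, lower in CH and lowest in DMSO.

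Several targets and feedback inhibitors of Nodal and Activin were higher in Fgf2/Activin than in CH and than in DMSO. Of 18 tested, 8 were called lower in CH than in Fgf2/Activin and 3 higher (61.1%, against 22.6% of all genes). The median log2 fold change was -1.30. Between Fgf2/Activin and DMSO, 8 of the 18 were called higher (1.68% of all genes), or 7 without the replicate block, and none lower. The ligand inhibitor Lefty1 (GRCm38 chromosome 1, 180935022 to 180938400) had 33.2, 43.0 and 31.1 CPM in CH and 173, 144 and 148 CPM in Fgf2/Activin. In DMSO it had 0.970 ± 0.540 CPM. Fgf2/Activin was above CH in every sample (log2 fold change of CH over Fgf2/Activin -2.11 ± 0.22, adjusted p = 1.02e-05) and far above DMSO (7.29 ± 0.31 for Fgf2/Activin over DMSO, adjusted p = 2.03e-07). CH was itself above DMSO, by 5.18 ± 0.31 (adjusted p = 2.15e-07), in a comparison that called 9.27% of all genes higher in CH. Its neighbour Lefty2 had 26.8, 32.1 and 27.6 CPM in CH and 120.3, 149.8 and 139 CPM in Fgf2/Activin and 0.513 ± 0.430 CPM in DMSO, in the same order (log2 fold change of CH over Fgf2/Activin -2.24 ± 0.18). The transcripts of these neighbours are alike over 11.2% of the 75-base windows of Lefty1. Reads from those windows cannot be assigned to one of the 2 genes, and may be missing from both counts.

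Pmepa1, which limits Smad2/3 activation, had 1.43, 1.504 and 1.48 CPM in CH and 35.5, 20.96 and 22.2 CPM in Fgf2/Activin (log2 fold change -4.12 ± 0.21, adjusted p = 5.57e-08). The inhibitory Smad7 had 22.7, 25.0 and 27.0 CPM in CH and 88.3, 75.1 and 76.3 CPM in Fgf2/Activin against 2.03 ± 0.798 CPM in DMSO. Its log2 fold change was -1.68 ± 0.15 for CH over Fgf2/Activin and 5.27 ± 0.19 for Fgf2/Activin over DMSO (adjusted p = 3.6e-06 and 5.36e-08). The Smad co-repressor Skil had -1.90 ± 0.14 and 1.16 ± 0.14 in these comparisons. Nodal itself had 43.8, 62.2 and 58.2 CPM in CH and 61.8, 62.3 and 56.9 CPM in Fgf2/Activin. Those samples overlapped and the log2 fold change of -0.13 ± 0.17 was not called, while Fgf2/Activin was above DMSO by 2.94 ± 0.19 (adjusted p = 4.79e-06) and CH above DMSO by 2.80 ± 0.19 (adjusted p = 5.08e-07). Tdgf1, the Nodal co-receptor Cripto, was lower in each CH sample, with 89.9, 221 and 229 CPM in CH and 446, 430.3 and 391 CPM in Fgf2/Activin, but did not pass the test (log2 fold change -1.30 ± 0.40, adjusted p = 0.0163).

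Among the genes higher in CH were Fst, a secreted protein that binds and neutralises Activin, with 91.1, 45.1 and 47.8 CPM in CH and 6.56, 15.1 and 16.2 CPM in Fgf2/Activin (log2 fold change 2.35 ± 0.50, adjusted p = 0.00195, and 0.0126 without Fgf2/Activin replicate 1), and the streak factor Mixl1. Of 10 ligands and receptors of the pathway, Gdf3 (1.58 ± 0.06) and the convertase Pcsk6 (1.51 ± 0.11) were called higher and none lower. These 20.0% lay near the 22.6% of all genes. None of 11 Smad and Smad-regulating genes was called in either direction. Smad3, an effector of the pathway, had 26.4, 18.1 and 17.3 CPM in CH and 41.3, 29.6 and 28.7 CPM in Fgf2/Activin, lower in each CH sample within a replicate number but under the fold threshold (-0.70 ± 0.10).

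Genes of FGF and ERK signalling were called in both directions. Of 22 FGF ligands, receptors and co-receptors, 3 were called higher and 6 lower in CH (40.9%, against 22.6% of all genes). The median was -0.67, and without replicate 1 the counts were 3 and 9. Fgf5, the ligand that marks the postimplantation epiblast (GRCm38 chromosome 5, 98254184 to 98277030), had 0, 0.556 and 0.520 CPM in CH and 129.8, 113 and 115 CPM in Fgf2/Activin. It was undetected in CH replicate 1 and, as the rule for named genes required, lower in every CH sample (log2 fold change -8.43 ± 0.43, adjusted p = 6.28e-08). In DMSO it had 46.8 ± 16.9 CPM, below Fgf2/Activin by 1.43 ± 0.26 (adjusted p = 0.00423, and 0.0766 without the replicate block). Fgf15, an epiblast and neural ligand, had 0.0341, 0.556 and 0.240 CPM in CH and 37.3, 36.3 and 33.5 CPM in Fgf2/Activin (log2 fold change -7.14 ± 0.52) and was above DMSO by 4.42 ± 0.41 in Fgf2/Activin, with overlapping exons over 25.7% of its length. Fgf4, the autocrine ligand of ES cells, had 47.8, 65.6 and 72.9 CPM in CH and 154, 178 and 163 CPM in Fgf2/Activin (log2 fold change -1.41 ± 0.14, adjusted p = 6.89e-06), and 2i was above CH by 1.37 ± 0.14 (adjusted p = 0.000108). Fgf17 (1.72 ± 0.19), the heparan sulphate carrier Sdc4 (1.90 ± 0.10) and Fgfbp1 (1.90 ± 0.26), which releases FGFs from the matrix, were higher in CH. Fgfr1, the main FGF receptor of the epiblast, had 128, 104 and 93.1 CPM in CH and 79.9, 81.1 and 85.8 CPM in Fgf2/Activin and was not called (0.40 ± 0.11).

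Of 19 ERK feedback inhibitors and Pea3 factors, 3 were called higher and 6 lower (47.4%, against 22.6% of all genes). Their median was -0.47. Dusp9, a phosphatase that inactivates ERK, had 8.65, 6.18 and 5.40 CPM in CH and 172, 113 and 115 CPM in Fgf2/Activin (log2 fold change -4.30 ± 0.09, adjusted p = 2.06e-10). The nuclear ERK phosphatase Dusp4 had 51.6, 54.2 and 47.5 CPM in CH and 185, 128 and 123 CPM in Fgf2/Activin (-1.51 ± 0.21). Both were lower in every CH sample. Spry2 and Spred1, inhibitors of the receptor to Ras step, went the opposite way, with log2 fold changes of 1.42 ± 0.09 and 1.27 ± 0.07. Spry2 had 84.1, 104 and 109 CPM in CH and 36.1, 37.4 and 36.8 CPM in Fgf2/Activin, without overlap. The Pea3 factor Etv4 was not called (0.62 ± 0.28). MEK inhibition, the difference between 2i and CH, called 6 of the 19 lower in 2i (3.25% of all genes), and 4 without the replicate block. Among the 6 were Dusp6 (-1.79 ± 0.13), Spry4 (-2.69 ± 0.27) and Dusp4 (-2.88 ± 0.24).

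Of 16 immediate early genes, 1 was called higher in CH and 8 lower (56.25%, against 22.6% of all genes), with a median of -1.04. Without replicate 1 of every culture none was higher and 7 were lower. The gene called higher was Egr1, a rapid transcriptional read-out of ERK activity, with 135, 159 and 162 CPM in CH and 54.8, 81.8 and 84.5 CPM in Fgf2/Activin (log2 fold change 1.05 ± 0.19, adjusted p = 0.000628). Its level fell to 1.26 ± 0.443 CPM in 2i, a log2 fold change of 2i over CH of -6.93 ± 0.28 (adjusted p = 3.49e-07). Its log2 fold change was under the fold threshold, at 0.95 ± 0.05, without replicate 1 of every culture, at 0.82 without Fgf2/Activin replicate 1 and at 0.998 without CH replicate 3. The AP-1 genes Fosl2 and Jund had -3.17 ± 0.27 and -1.94 ± 0.17, the latter with exon overlap over 52.6% of its length, and the stress-inducible Ier3 -3.03 ± 0.42. Fosl2 had 3.10, 2.19 and 1.64 CPM in CH and 19.2, 21.8 and 20.8 CPM in Fgf2/Activin, a clear separation. Myc, a growth regulator, had 9.64, 25.5 and 22.6 CPM in CH and 59.4, 45.6 and 45.5 CPM in Fgf2/Activin (log2 fold change -1.52 ± 0.31), and the adjusted p of 0.00144 became 0.0147 without the replicate block. Without replicate 1 of every culture its log2 fold change was -0.91 ± 0.09, and without Fgf2/Activin replicate 1 it was -0.99.

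Naive pluripotency factors were mostly higher in CH. Of 25 tested, 19 were higher in CH and 1 lower (80.0% called, against 22.6% of all genes). The median log2 fold change was 3.30, and the counts were 19 and 1 also without replicate 1. Esrrb, the nuclear receptor that acts downstream of GSK3 inhibition (GRCm38 chromosome 12, 86361117 to 86521628), had 363, 286 and 313 CPM in CH and 21.4, 11.5 and 9.21 CPM in Fgf2/Activin. The samples of the cultures were far apart (log2 fold change 4.60 ± 0.34, adjusted p = 9.38e-07). Klf2 had 122, 152 and 149 CPM in CH and 5.65, 3.38 and 2.92 CPM in Fgf2/Activin (log2 fold change 5.16 ± 0.20, adjusted p = 9e-09), and Klf4 115, 56.3 and 70.1 CPM in CH and 5.99, 3.52 and 3.62 CPM in Fgf2/Activin (4.19 ± 0.09, adjusted p = 2.06e-10). Tfcp2l1, a factor of the same network, had 298, 251 and 259.8 CPM in CH and 18.7, 10.2 and 9.91 CPM in Fgf2/Activin (4.45 ± 0.32). Nr5a2, an activator of Pou5f1, had 94.0, 154 and 173 CPM in CH and 2.02, 1.74 and 1.29 CPM in Fgf2/Activin (6.34 ± 0.28). These genes kept their separation in all samples. The remaining members ranged up to 5.77 ± 0.29 for Prdm14, which represses DNA methylation and FGF genes, with Tbx3 at 5.52 ± 0.26, Tcl1 at 4.95 ± 0.24, the threonine-catabolic enzyme Tdh at 4.76 ± 0.15, Dppa3 at 4.65 ± 0.26, Nr0b1 at 4.07 ± 0.17 and Zfp42 (Rex1) at 3.30 ± 0.16. Nanog had 358, 248 and 276 CPM in CH and 67.2, 32.7 and 32.7 CPM in Fgf2/Activin (log2 fold change 2.87 ± 0.59), with an adjusted p of 0.0015 that became 0.0241 without the replicate block. The member called lower was Fgf4.

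Between Fgf2/Activin and DMSO, 1 of the 25 factors was called higher and 3 lower in Fgf2/Activin (1.68% and 0.908% of all genes). Klf2 was lower in Fgf2/Activin than in DMSO, by 2.04 ± 0.20 on the log2 scale (adjusted p = 8.3e-05), as were Tdh, by 1.54 ± 0.13, and Fbxo15, by 1.55 ± 0.15. Dppa5a was higher (1.61 ± 0.10) and did not reach the fold threshold between CH and Fgf2/Activin (0.39 ± 0.10). Between 2i and CH, 4 were higher in 2i (0.841% of all genes) and none lower. The 4 were Prdm14 (1.94 ± 0.17), Jam2 (1.77 ± 0.12), Tcl1 (1.45 ± 0.17) and Fgf4.

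No cytokine of the Lif family was added to either culture, yet components of its receptor were higher in CH. Of 17 genes of the Lif and Stat3 axis, 6 were called higher and 2 lower (47.1%, against 22.6% of all genes). Their median was 0.81, and the target genes Klf4, Tfcp2l1 and Gbx2 are among the 6. The receptor subunit Lifr had 53.8, 60.2 and 63.2 CPM in CH and 13.2, 12.6 and 12.2 CPM in Fgf2/Activin (log2 fold change 2.21 ± 0.08, adjusted p = 8.02e-09). The shared subunit gp130 (Il6st) had 148, 153 and 160.4 CPM in CH and 33.1, 28.2 and 27.3 CPM in Fgf2/Activin (2.39 ± 0.07, adjusted p = 1.53e-09). Il6ra had 2.63 ± 0.13, and Stat3, at 0.90 ± 0.14, stayed under the fold threshold. The feedback inhibitor Socs3 had 18.9, 3.79 and 3.52 CPM in CH and 8.06, 4.14 and 3.09 CPM in Fgf2/Activin, with overlap and no call.

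The general pluripotency factors were expressed in all samples, as the labelled cell type requires. Of 12 tested, 1 was higher and 1 lower (16.7% called, against 22.6% of all genes), with a median of -0.04. Pou5f1 (Oct4) had 662, 921 and 916 CPM in CH and 706, 766 and 772 CPM in Fgf2/Activin, with overlap between the cultures and no call (0.14 ± 0.06). Sox2 was the exception on the side of CH, with 324, 324 and 376 CPM in CH and 69.7, 70.4 and 70.6 CPM in Fgf2/Activin (log2 fold change 2.28 ± 0.08, adjusted p = 4.36e-09). Utf1, a chromatin factor, was lower, with 156, 282 and 289.9 CPM in CH and 734, 644 and 660.3 CPM in Fgf2/Activin (-1.53 ± 0.19).

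Formative and primed epiblast factors were mostly lower in CH. Of 24 tested, 17 were called lower and 3 higher (Dnmt3l, Wnt8a and T), together 83.3% against 22.6% of all genes. The median was -1.92, and the counts without replicate 1 were 17 and 4. Otx2, which directs the exit from the naive state (GRCm38 chromosome 14, 48657677 to 48673819), had 6.44, 29.9 and 27.3 CPM in CH and 208, 217 and 207 CPM in Fgf2/Activin. CH replicate 1 was the lowest sample, and all CH samples were below all Fgf2/Activin samples (log2 fold change -3.42 ± 0.33, adjusted p = 6.58e-06). Pou3f1 (Oct6) had 0.511, 3.27 and 2.20 CPM in CH and 162, 200.3 and 187 CPM in Fgf2/Activin (log2 fold change -6.62 ± 0.32, adjusted p = 4.61e-08). Sox3 had 3.54, 5.72 and 3.72 CPM in CH and 45.4, 58.8 and 58.5 CPM in Fgf2/Activin (-3.65 ± 0.20). The separation of these factors was complete, which for Pou3f1 the rule for named genes had required. Nes had -1.88 ± 0.16 and Foxd3 -1.95 ± 0.35, the latter with an adjusted p of 0.0161 without the replicate block. Only Fgf5 and Fgf15 of the 24 were called between Fgf2/Activin and DMSO, both higher in Fgf2/Activin, and Otx2 had 211 ± 5.65 and 188 ± 19.6 CPM there.

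The de novo DNA methyltransferases belong to the same state. Dnmt3b (GRCm38 chromosome 2, 153649450 to 153687730) had 467, 835 and 766 CPM in CH and 2362, 2931 and 2799 CPM in Fgf2/Activin (log2 fold change -2.01 ± 0.09, adjusted p = 2.3e-08), and Dnmt3a 96.7, 142 and 125 CPM in CH and 551, 633 and 640.3 CPM in Fgf2/Activin (-2.34 ± 0.11, adjusted p = 2.55e-08). Both were lower in every CH sample, whereas the cofactor Dnmt3l was higher, with 86.5, 212 and 201 CPM in CH and 38.5, 41.2 and 38.9 CPM in Fgf2/Activin (2.00 ± 0.42, adjusted p = 0.00187). Without Fgf2/Activin replicate 2 or 3 the adjusted p of Dnmt3l was 0.0126 and 0.0121. Of the dioxygenases that oxidise methylcytosine, Tet3 was lower (-2.01 ± 0.23), Tet2 higher (1.46 ± 0.22) and Tet1 not called (-0.43 ± 0.11). Of 14 genes for DNA methylation and its removal, 4 were higher and 4 lower (57.1% called, against 22.6% of all genes). Zfp57, which protects imprinted methylation, was among the former (2.22 ± 0.24). Of 21 germline genes, many of which are repressed by promoter methylation in somatic cells, 2 were higher and 8 lower (47.6% called). Sycp2, of the synaptonemal complex, had 1.26, 1.96 and 1.68 CPM in CH and 7.52, 12.0 and 12.8 CPM in Fgf2/Activin (-2.70 ± 0.14), and Mael, of the piRNA pathway, 9.20, 8.70 and 9.76 CPM in CH and 34.7, 35.6 and 35.3 CPM in Fgf2/Activin (-1.93 ± 0.14).

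**Figure D3:**
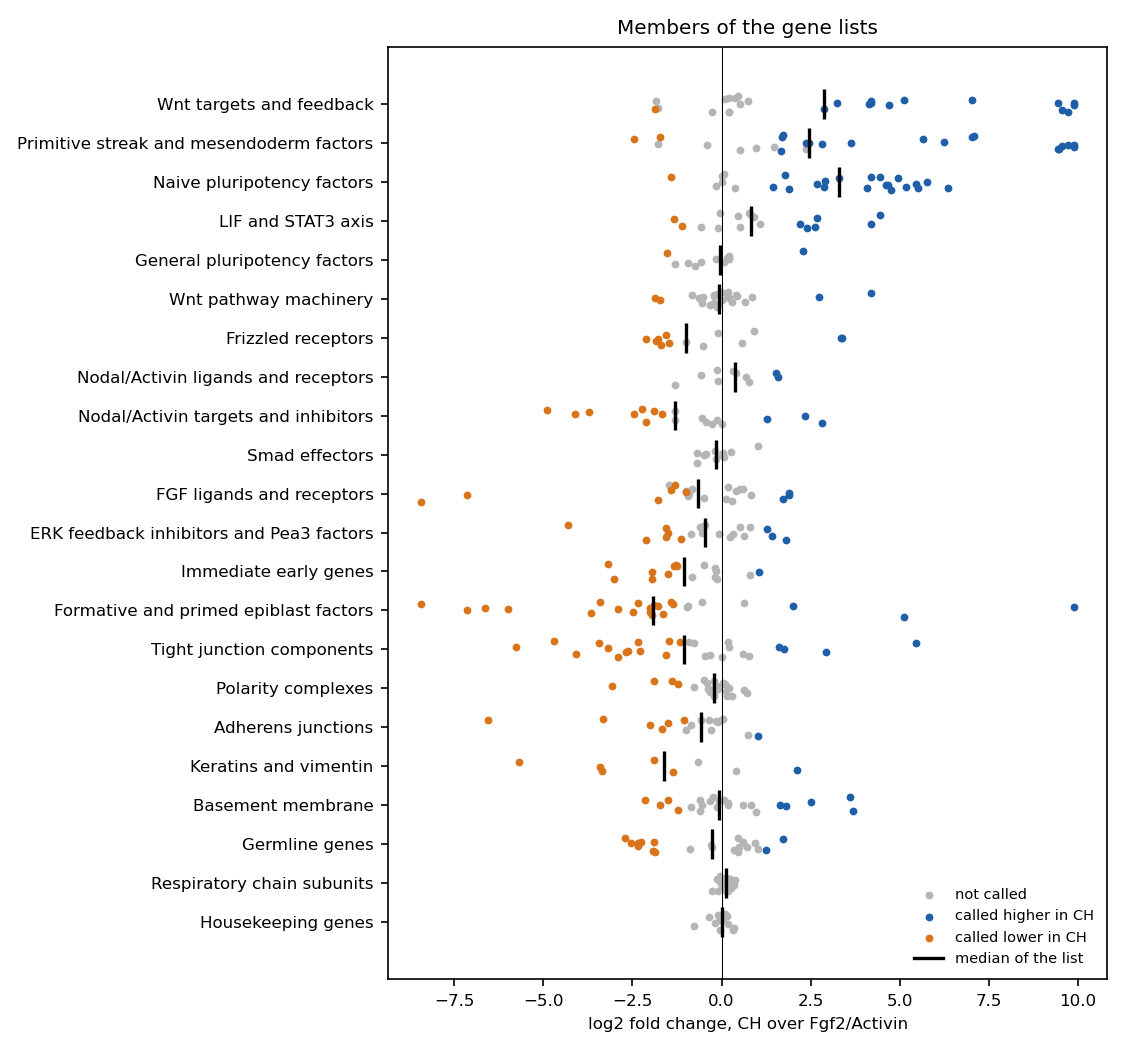
Log2 fold change of CH over Fgf2/Activin for each tested member of 22 gene lists (blue, called higher; orange, called lower; grey, not called), with a black bar at each list's median. Naive factors and Wnt targets have medians near 3, formative factors near -1.9, and no respiratory chain or housekeeping gene was called.

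Of 26 tight junction components tested, 13 were called lower in CH (13.0% of all genes) and 4 higher (9.59% of all genes), with a median of -1.04. Without replicate 1 the counts were 13 and 4, and without the replicate block 9 and 4. Ocln, the membrane protein occludin (GRCm38 chromosome 13, 100496507 to 100552718), had 5.41, 2.32 and 2.24 CPM in CH and 37.0, 26.0 and 24.5 CPM in Fgf2/Activin. Replicate 1 was highest in both cultures, and each CH sample was below each Fgf2/Activin sample (log2 fold change -3.18 ± 0.17, adjusted p = 9.31e-08). Cldn6, a claudin of the early epiblast, had 29.6, 23.5 and 20.2 CPM in CH and 208, 172 and 169 CPM in Fgf2/Activin (-2.92 ± 0.17, adjusted p = 1.3e-07). Cldn7 had 20.2, 2.42 and 3.12 CPM in CH and 137, 94.6 and 95.1 CPM in Fgf2/Activin (-4.09 ± 0.51, adjusted p = 4.58e-05), and CH replicate 1 was several times above the other CH samples. The adaptor Cgn (cingulin) had -2.61 ± 0.11, and the tight junction proteins Marveld2 and Marveld3 -2.34 ± 0.13 and -2.69 ± 0.27. Cldn3, Cldn4, Cgnl1 and Tjp3 were lower with the block (-1.57 ± 0.14, -1.17 ± 0.11, -1.47 ± 0.17 and -2.30 ± 0.16), but had adjusted p of 0.0128, 0.037, 0.0102 and 0.0115 without it. The scaffold Tjp1 (ZO-1) had 109, 127 and 121 CPM in CH and 220.2, 224 and 226 CPM in Fgf2/Activin, lower in each CH sample but under the fold threshold (-0.91 ± 0.06). Jam2 was among the genes called higher (log2 fold change 5.45 ± 0.19, adjusted p = 4.38e-09). It had 26.8, 30.3 and 34.5 CPM in CH and 0.692, 0.887 and 0.487 CPM in Fgf2/Activin. Jam3 had 1.76 ± 0.16, with exon overlap over 36.2% of its length. None of the 26 was called between Fgf2/Activin and DMSO.

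Of 25 genes of the Par, Crumbs and Scribble polarity complexes, none was called higher and 4 were lower (a share near the 13.0% of all genes), with a median of -0.21. The kinase Prkci and the scaffold Pard3 had 0.12 ± 0.08 and -0.32 ± 0.06 and were not called. The lower genes were Pard6b, with 21.7, 19.9 and 21.7 CPM in CH and 64.7, 50.6 and 50.7 CPM in Fgf2/Activin (log2 fold change -1.38 ± 0.12, adjusted p = 2.32e-06), Crb3 (-1.90 ± 0.15), Crb1, and Patj, whose -1.21 ± 0.18 had an adjusted p of 0.0186 without the replicate block. Among 26 apical membrane and trafficking genes, 4 were higher and 6 lower (38.5% called, against 22.6% of all genes). Podxl, the sialomucin of the lumen surface (GRCm38 chromosome 6, 31519488 to 31563981), had 37.7, 41.9 and 40.4 CPM in CH and 331, 254 and 235 CPM in Fgf2/Activin. The groups were well apart (log2 fold change -2.76 ± 0.15, adjusted p = 9.22e-08), and 2i was below CH (-1.78 ± 0.16, adjusted p = 6.29e-05). Espn, which bundles actin in microvilli, had -3.34 ± 0.21, while Cobl, an actin nucleator, had 111, 111 and 124 CPM in CH and 13.1, 10.9 and 12.4 CPM in Fgf2/Activin (3.25 ± 0.12) and Eps8 1.53 ± 0.07. Arl4c, a small GTPase that acts upstream of Cdc42, had 29.0, 20.1 and 15.4 CPM in CH and 157, 117 and 115 CPM in Fgf2/Activin (-2.61 ± 0.13, adjusted p = 4.7e-08). The membrane to cytoskeleton linker Ezr stayed under the fold threshold (-0.51 ± 0.06).

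The main cadherin stayed under the fold threshold. E-cadherin (Cdh1) had 428, 525 and 537 CPM in CH and 933, 882 and 885 CPM in Fgf2/Activin, lower in each CH sample (-0.86 ± 0.08, adjusted p = 4.22e-06). Of 17 adherens junction genes, 6 were lower and 1 higher (41.2% called, against 22.6% of all genes), and 3 and 0 without the replicate block. Epcam was lower, with 127, 111 and 119 CPM in CH and 353, 332 and 329 CPM in Fgf2/Activin (-1.51 ± 0.07, adjusted p = 2.7e-08). Of 10 desmosome genes, 3 were lower and 1 higher (40.0% called), and the plakophilin Pkp3 was among the lower genes (-2.06 ± 0.16). Among the keratins of simple epithelia, Krt18 and Krt8 were lower in CH, and Krt19 was not called (-0.67 ± 0.37). Krt18 (GRCm38 chromosome 15, 102028180 to 102032027) had 2.96, 1.47 and 2.00 CPM in CH and 189, 73.8 and 76.6 CPM in Fgf2/Activin, and in both cultures replicate 1 was the highest (log2 fold change -5.69 ± 0.18, adjusted p = 2.73e-09). Its partner Krt8 had 6.06, 2.88 and 3.20 CPM in CH and 61.1, 30.5 and 32.1 CPM in Fgf2/Activin (-3.34 ± 0.32, adjusted p = 5.93e-06), and 23.5% of its 75-base windows occur in other transcripts. Vimentin (Vim), a mesenchymal filament that is also expressed in naive ES cells, was higher, with 217, 216 and 223 CPM in CH and 42.0, 55.4 and 55.2 CPM in Fgf2/Activin (2.12 ± 0.15, adjusted p = 5.72e-07). Of 8 keratins and other filament genes, 5 were lower and 1 higher (3 and 1 without the replicate block).

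**Figure D4:**
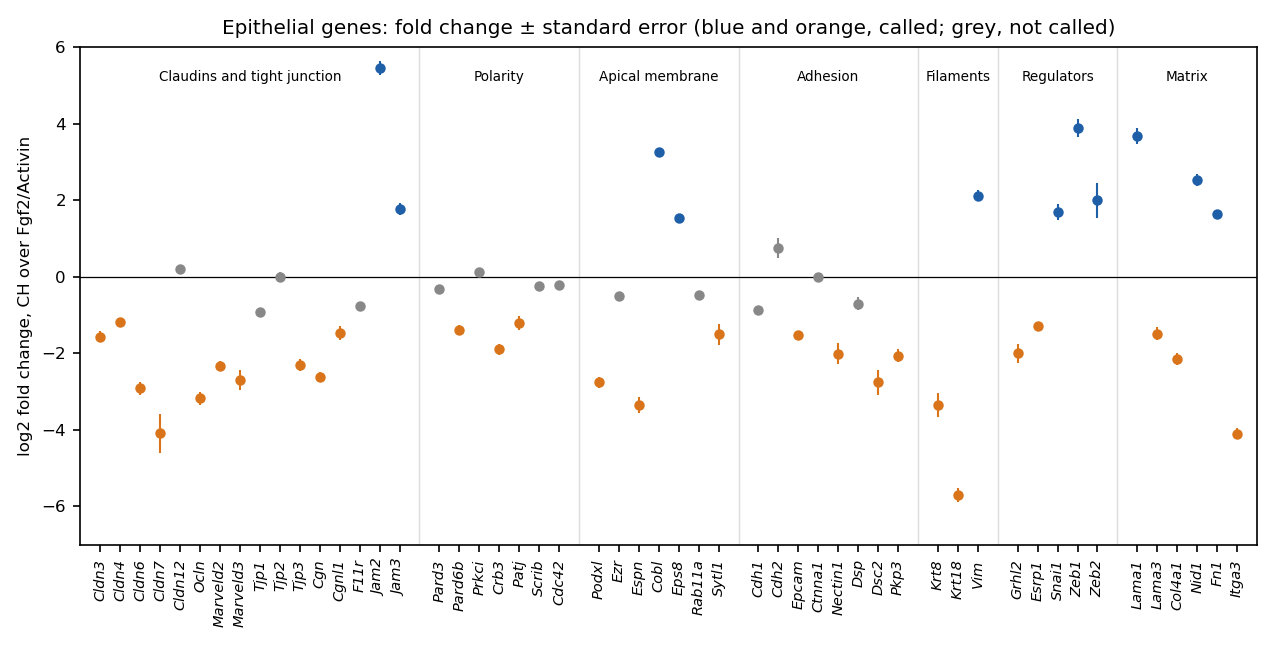
Log2 fold change of CH over Fgf2/Activin with its standard error for genes of tight junctions, polarity complexes, the apical membrane, adhesion, filaments, epithelial regulators and the matrix (blue and orange, called higher and lower; grey, not called). Most claudins and Krt18 lie below 0, the polarity genes Pard3, Prkci, Scrib and Cdc42 lie near 0 while Pard6b, Crb3 and Patj lie below it, and Jam2, Cobl, Vim, Zeb1 and Lama1 lie above 0.

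Regulators of epithelial identity were called on each side, 5 higher and 6 lower of 19 (57.9%, against 22.6% of all genes). Grhl2, an activator of epithelial genes, had 8.45, 30.6 and 29.6 CPM in CH and 71.2, 89.5 and 89.2 CPM in Fgf2/Activin (-1.9996 ± 0.24, adjusted p = 3.71e-05), and the splicing factor Esrp1 -1.29 ± 0.09. The repressors of E-cadherin Zeb1, with 4.22, 10.2 and 10.04 CPM in CH and 0.211, 0.854 and 0.591 CPM in Fgf2/Activin (3.89 ± 0.23, adjusted p = 1.62e-07) and Snai1 were higher in CH. Klf5 was also higher (1.78 ± 0.16). For the matrix, 5 of 23 basement membrane genes were higher and 4 lower (39.1% called), with a median of -0.08. The laminin chain Lama1 had 103, 41.4 and 44.1 CPM in CH and 5.53, 4.07 and 4.35 CPM in Fgf2/Activin (3.68 ± 0.20, adjusted p = 1.02e-07), nidogen Nid1 2.52 ± 0.16, and fibronectin (Fn1) 1.64 ± 0.09. Collagen IV was lower, with -2.15 ± 0.17 for Col4a1, as was collagen XVIII (Col18a1, -1.73 ± 0.12). Of 14 integrins, Itga1 was higher (3.04 ± 0.25) and 4 were lower, together 35.7%. Itga3, a laminin receptor subunit, had 4.05, 2.26 and 2.20 CPM in CH and 63.9, 41.6 and 40.6 CPM in Fgf2/Activin (-4.10 ± 0.15, adjusted p = 5.46e-09), whereas Itgb1 (-0.42 ± 0.09) and Itga6 (-0.45 ± 0.07) stayed under the fold threshold. Since the cells were embedded in Matrigel, a basement membrane extract, these transcripts describe the cells and not the matrix around them.

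Some isoforms of glucose transport and lactate metabolism were called in opposite directions. Of 22 genes of glucose uptake and glycolysis, 3 were higher and 6 lower (40.9% called, against 22.6% of all genes). Their median was -0.50. The lactate and pyruvate exporter Slc16a3 (MCT4) had 33.001, 29.0 and 36.3 CPM in CH and 422, 432 and 439 CPM in Fgf2/Activin, apart in every sample (log2 fold change -3.72 ± 0.16, adjusted p = 1.63e-08). The glucose transporter Slc2a1 was lower (-1.40 ± 0.07) and Slc2a3 higher (2.27 ± 0.29). In the same way the lactate dehydrogenase subunit Ldha was lower (-1.04 ± 0.10, but -0.94 without replicate 1 of every culture, and -0.96 and -0.98 without CH or Fgf2/Activin replicate 1) and Ldhb higher (1.84 ± 0.10). Slc2a1 was lower in Fgf2/Activin than in DMSO as well, by 1.03 ± 0.07 on the log2 scale (adjusted p = 9.59e-06). None of 24 subunits of the respiratory chain was called, and their median was 0.12.

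Members of other pathways are given beside the 22.6% of all genes called. Of 17 Notch genes, 4 were higher and 5 lower (52.9% called). Notch3 had 56.5, 34.6 and 36.3 CPM in CH and 269, 211 and 233 CPM in Fgf2/Activin (-2.52 ± 0.11, adjusted p = 1.87e-08) and was above DMSO in Fgf2/Activin (1.53 ± 0.10, adjusted p = 6.84e-06, and 0.0102 without the replicate block). The ligand Jag1 was higher (1.53 ± 0.08) and Jag2 lower (-1.44 ± 0.10), and the transcriptional regulator Hes6 was lower (-3.16 ± 0.11). Of 16 BMP pathway genes, 3 were higher and 3 lower (37.5% called), or 3 and 1 without the replicate block. Id4, of the Id family of BMP targets, had 3.06 ± 0.32 and the antagonist Chrd -2.44 ± 0.21. The Id genes did not move together. Without replicate 1 of every culture, Id2 had -2.95 ± 0.20 and Id3 1.78 ± 0.07. Of 15 retinoic acid genes, 2 were higher and 4 lower (40.0% called), and the uptake receptor Stra6 was among the lower genes (-4.88 ± 0.45). The TEAD factors, partners of Yap, differed among themselves, with Tead1 (2.27 ± 0.20) and Tead4 (1.87 ± 0.30) higher and Tead2 (-1.64 ± 0.07) and Tead3 (-3.05 ± 0.21) lower. Of 19 cell cycle regulators, 2 were higher and 2 lower, and their 21.1% lay near the share of all genes. The inhibitors Cdkn1a and Cdkn2a were the former (1.61 ± 0.20 and 1.79 ± 0.15), and the G1/S cyclin Ccne1 was lower (-1.37 ± 0.12). Of 19 apoptosis regulators, none was higher and 3 were lower (15.8%, where 13.0% of all genes were lower), Bcl2l11 (Bim, -2.02 ± 0.14), Bok (-1.53 ± 0.14) and Bik (-2.26 ± 0.32).

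Markers of other cell types were measured in the same samples. The 14 primitive endoderm markers summed to between 4.80 and 7.02 CPM in CH and between 8.54 and 9.42 in Fgf2/Activin, and Ttr had no count in either culture. The 12 neural markers summed to between 19.0 and 32.3 CPM in CH and between 58.5 and 75.9 in Fgf2/Activin, of which Tubb3 made up most. Of the 7 tested, 1 was called lower, Tubb3 (-2.20 ± 0.34), and 2 higher, among them Pax6 (1.29 ± 0.33) at a mean of 1.36 CPM in CH. None of the 7 was called without the replicate block (adjusted p = 0.0332 for Tubb3 and 0.187 for Pax6). The call of Pax6 was also lost without replicate 2 or 3 of either culture (adjusted p between 0.0162 and 0.0562). The 13 trophectoderm markers summed to between 135 and 170 CPM in CH and between 40.6 and 47.1 in Fgf2/Activin. That sum was raised by Cdx2, Tfap2a (5.24 ± 0.13) and Tfap2c (4.50 ± 0.43), while Tpbpa had no count, Elf5, Gata3 and Hand1 were too low to be tested, and Krt7 was lower (-3.42 ± 0.64, with an adjusted p of 0.0441 without the replicate block). Endothelial and blood markers summed to between 45.5 and 48.9 CPM in CH and between 24.5 and 26.3 in Fgf2/Activin, mostly from Pecam1, which ES cells also express. Fibroblast markers summed to between 7.68 and 13.4 CPM in CH and between 18.3 and 32.7 in Fgf2/Activin, and 9 two-cell-like markers to at most 1.52 CPM in any sample. The part of such cells in the differences above was not tested. None of 12 housekeeping genes was called, and their median was 0.01.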

How the data were processed

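Per the labels and the study's methods, the authors mapped reads to mm10 with TopHat2 and counted them per Ensembl gene with HTSeq, without strand and with the Ensembl release not given in the sources used here. The deposited values are these raw counts, for 49671 gene identifiers. Columns were matched to samples by name. Gene positions came from GENCODE M21 (GRCm38), in which 49412 identifiers were found. The 12 wild-type samples were fitted together with edgeR 4.0.16 (TMM scaling, default filter on low counts, quasi-likelihood test, R 4.3.3), with the replicate number as a block and 6 residual degrees of freedom. The steps were tested on simulated data. In 12376 genes, same-numbered CH and Fgf2/Activin samples deviated from their group means together (r = 0.592, 0.460 and 0.474), so the numbers were taken to pair the samples. Replicates 2 and 3 correlated as well across numbers (0.503 and 0.472), so this pairing comes from the data and tells only replicate 1 from the others. With DESeq2 1.42.0 as an alternative, the settings tried are given at the end. The members and the 43 gene lists were chosen with earlier results of these data known. Any list member could be named, and beyond the lists in each direction the 10 called genes that changed most, with a mean of 200 counts or more and no overlap. Counts per sample bound precision for counting error only. The Esrrb samples, 6 of the 18, were not used here, and many list members are counted but not named.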

Additional observations from a re-analysis of the deposited data

How the results depend on the processing

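The 1574 genes higher and 2131 lower in CH became 1296 and 1688 without the replicate block, with 2968 of the 3705 calls shared, and 1307 and 1814 with the 6 compared samples alone. DESeq2's size factors gave 1549 and 2158, its Wald test 1464 and 2086, and no filter on low counts 1737 and 2290. A minimum of 10 counts in every compared sample left 1024 and 1342 among fewer genes tested, a test against a log2 fold change of 1 left 839 and 1203, and no minimum fold change gave 3783 and 3980. Leaving out 1 sample at a time gave 1396 to 1494 higher and 1863 to 2098 lower. Chosen after seeing the data, a block of replicate 1 against the others gave 1620 and 2167, and leaving out replicate 1 of every culture 1510 and 2228. Without the replicate block, Fgf2/Activin against DMSO fell from 424 to 205 genes and 2i against CH from 672 to 326. Of 174 named genes called, 156 kept the call under every alternative that tested them, other than those on the fold threshold. The minimum of 10 counts in every compared sample tested only 2371 of the 3705 genes called. Genes near 0 counts in one culture were therefore not tried under it. Beside those described above, no named call was lost to a left-out sample. For Lef1, Nodal and Fgf8, none of them called, the sign turned. Without replicate 1 of every culture their log2 fold changes were -0.0062, 0.019 and -0.39, and over the samples left out in turn they ran from -0.0059 to 0.36, from -0.28 to 0.099 and from -0.38 to 1.12. Counting depth limits genes at under about 1 CPM, such as Crb1, Mesp2 and Ifit1.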

Other observations

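Interferon-inducible genes differed between the cultures, although no interferon was added to either. These 20 genes were chosen after their values were seen, so their counts are a description. Of the 20, 12 were lower in CH than in Fgf2/Activin (13.0% of all genes) and 1 was higher (9.59%). Their median log2 fold change was -1.68. Against DMSO, 14 were higher in Fgf2/Activin (13 without the replicate block) and 1 was lower. Of all genes, 1.68% were called higher and 0.908% lower in that comparison. Gbp2, a guanylate-binding GTPase of antimicrobial defence, had 7.59, 13.6 and 9.88 CPM in CH and 42.8, 44.9 and 42.8 CPM in Fgf2/Activin. In DMSO it had 1.24 ± 1.07 CPM and in 2i 1.28 ± 0.119 CPM, so that CH lay between Fgf2/Activin and these cultures (log2 fold change -2.12 ± 0.26 for CH over Fgf2/Activin and 3.05 ± 0.32 for CH over DMSO, adjusted p = 3.53e-05 and 1.28e-05). Oasl2, of the oligoadenylate synthetase family, had 1.67, 1.24 and 0.880 CPM in CH and 15.0, 13.2 and 13.1 CPM in Fgf2/Activin (log2 fold change -3.46 ± 0.28), and Zbp1, a sensor of Z-form nucleic acid, 0.681, 0.948 and 0.800 CPM in CH and 10.6, 8.51 and 7.68 CPM in Fgf2/Activin (-3.45 ± 0.28). Psmb8 and Psmb9, subunits of the immunoproteasome, had -3.55 ± 0.25 and -3.26 ± 0.29. The transcriptional activator Irf1 was lower in each CH sample but under the fold threshold (-0.69 ± 0.16), and higher in Fgf2/Activin than in DMSO (2.27 ± 0.17). Ifitm1, a membrane protein of the same class, went the opposite way, with 73.9, 65.1 and 67.2 CPM in CH and 7.16, 6.74 and 6.54 CPM in Fgf2/Activin (log2 fold change 3.34 ± 0.12, adjusted p = 5.89e-09), and it was lower in Fgf2/Activin than in DMSO (-2.81 ± 0.12). In the 2i samples, 10 of the 20 genes were called lower than in CH (9 without the replicate block) and none higher. The shares of all genes there were 3.25% lower and 0.841% higher. The reason for these differences was not tested.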
